A study of Mus musculus with 4 samples.

Results

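The metallothionein genes Mt1, Mt2, Mt3 and Mt4 were examined in sorted basal cells of embryonic mouse epidermis. Their probe sets were taken as those annotated to a single one of these 4 symbols, which gave 5 probe sets for 4 genes, out of 18193 genes with such a probe set on the array. Mt1 had 2 probe sets, a bright one and a dim one, and the other 3 genes had 1 each. Skin cells carrying a conditional knockout of Ezh2 (Ezh2cKO, 2 arrays) were compared with wild-type skin cells (WT, 2 arrays), all at embryonic day 16 and all from mice of a mixed C57 and CD1 strain. The series asks how expression in epidermal stem cells changes when Polycomb silencing is lost, Ezh2 being the enzyme that methylates histone H3 in that system. The labels name neither the Cre driver nor the deleted exons. They do not say whether embryos were pooled or whether the replicates numbered 1 and 2 came from separate animals. The SDs below therefore measure the spread between these arrays, which may be technical. The SEs are moderated errors of the limma fit, which pull each probe set's spread towards that of probe sets of like brightness. An SE can thus be smaller or larger than a probe set's own arrays would give. The family was chosen by its measured signals on these same arrays, above all the unequal differences between genotypes of the 2 Mt1 probe sets, so its values are given as a description, without p-values.

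Metallothioneins are small, cysteine-rich proteins that bind zinc and copper. Mt1 and Mt2 are made in most tissues and are induced by zinc, cadmium, glucocorticoids and oxidative stress; the zinc-sensing transcription factor Mtf1 drives them by binding metal response elements (MREs) near their starts. Mt3 is known chiefly from the brain, and Mt4 from differentiating stratified squamous epithelium, the tissue class to which epidermis belongs.

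The sequences upstream of the annotated starts of the 4 genes are shown, with their matches to the core of the MRE. Each is the 250 bases before the start given by the RefSeq promoter table (GRCm38.p6, plus strand), and capitals mark matches on either strand to the MRE core, searched as TGCACNC and TGCGCNC. The windows are chr8:94178839-94179088 for Mt1, chr8:94172368-94172617 for Mt2, chr8:94152357-94152606 for Mt3 and chr8:94136954-94137203 for Mt4.
Mt1: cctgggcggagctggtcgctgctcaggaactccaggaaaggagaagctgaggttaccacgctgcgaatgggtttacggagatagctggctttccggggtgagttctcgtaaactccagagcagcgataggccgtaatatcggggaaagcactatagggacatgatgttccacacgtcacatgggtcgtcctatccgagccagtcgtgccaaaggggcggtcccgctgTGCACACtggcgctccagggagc
Mt2: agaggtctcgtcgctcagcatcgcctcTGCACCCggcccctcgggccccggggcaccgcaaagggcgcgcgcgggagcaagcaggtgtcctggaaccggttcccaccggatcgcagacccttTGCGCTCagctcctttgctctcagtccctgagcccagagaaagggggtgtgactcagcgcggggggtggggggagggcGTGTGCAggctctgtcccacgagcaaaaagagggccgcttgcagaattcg
Mt3: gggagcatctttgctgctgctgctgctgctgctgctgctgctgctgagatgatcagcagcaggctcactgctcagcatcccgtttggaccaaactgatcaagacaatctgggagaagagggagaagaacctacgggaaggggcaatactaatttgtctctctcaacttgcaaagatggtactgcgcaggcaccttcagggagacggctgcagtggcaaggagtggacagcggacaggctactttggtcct
Mt4: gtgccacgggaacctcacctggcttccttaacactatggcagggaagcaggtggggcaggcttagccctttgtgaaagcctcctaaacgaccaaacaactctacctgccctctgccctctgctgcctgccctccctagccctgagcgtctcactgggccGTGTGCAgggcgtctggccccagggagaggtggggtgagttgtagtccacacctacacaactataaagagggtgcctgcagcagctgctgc

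Mt2 held 3 MRE cores in its window, Mt1 and Mt4 held 1 each, and Mt3 held 0. Of 32851 promoters in the table, 21.4% held at least 1 core of either form and 1.26% held at least 3. With the 50 bases after the start included, the counts were 3 for Mt1, 4 for Mt2, 1 for Mt3 and 1 for Mt4. Over that longer window, 25.7% of promoters held at least 1 core, 1.97% at least 3 and 0.517% at least 4. The RefSeq span of Mt1 begins upstream of the start used for its window. Most of that window therefore lies inside the span of a longer annotated transcript. The count for Mt1, and its contrast with Mt2, depend on the start used. The Mt1 and Mt2 windows held 17 and 21 CpG dinucleotides, against 5 each in the windows of Mt3 and Mt4. At least 17 were found in 23.5% of all promoters and at least 5 in 55.6%. Other motifs searched were the GC box GGGCGG, with 2 matches upstream of Mt1 and 0 upstream of the other 3 genes (32.7% of promoters hold it), and the AP-1 site TGANTCA, with 1 match upstream of Mt2 alone (6.75%). The USF E-box CACGTG (6.02%) and the glucocorticoid half-site TGTTCT (16.1%) matched none of the 4 windows. Neither the AP-1 match nor the 2 GC boxes overlapped an MRE core. A match describes letters only and does not show a binding site.

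**Figure D1:**
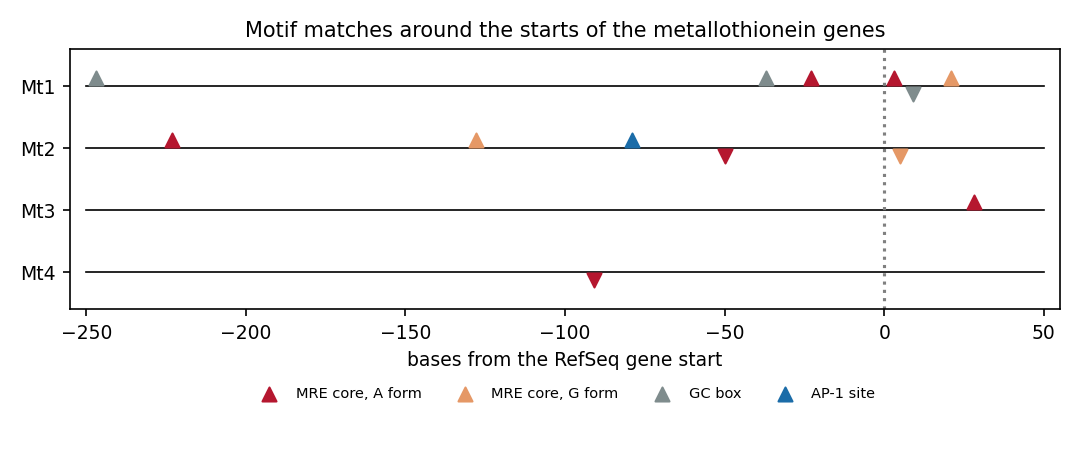
Matches to the searched motifs on the plus strand (upward triangles) and minus strand (downward triangles), placed by their first base along the 250 bases before and 50 bases after the RefSeq gene start (x axis, bases from the start; dotted line, start). Over the full 300 bases, Mt1 carried 3 MRE cores and Mt2 carried 4, and Mt3 and Mt4 carried 1 each.

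Some properties of the arrays bear on all that follows. Ezh2 itself had signals of 661 and 1308 on the Ezh2cKO arrays and 3336 and 3603 on the WT arrays. Signals are the deposited MAS5 intensities on a linear scale, and the highest on an array was 21906 to 24300. Xist, the transcript of the inactive X chromosome, read 86.9 on Ezh2cKO replicate 1 and 8669 or more on the other 3 arrays. Eif2s3y, a gene of the Y chromosome, had a log2 difference, Ezh2cKO minus WT, of 1.88 within number 1 and -0.39 within number 2. Within number 1, a difference of genotype and a difference of embryo sex cannot be told apart. The arrays numbered 1 and those numbered 2 also differed as sets, and the median signal was 87.4 and 91.6 on Ezh2cKO and WT replicate 1, against 148 and 137 on Ezh2cKO and WT replicate 2. A control probe set for the 5′ end of 18S ribosomal RNA followed the number too, at 446 and 130 on Ezh2cKO replicates 1 and 2 and 623 and 93.2 on WT replicates 1 and 2. The part of these differences in the results was not tested, and each metallothionein value is therefore also given within each number.

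The dim and the bright probe set annotated to Mt1 gave very different pictures. Probe sequences were not examined, so which part or transcript of Mt1 each reads is not known. The bright one, whose identifier carries the Affymetrix ending _s_at for probes that can match more than 1 transcript, read 7479 and 8390 on Ezh2cKO replicates 1 and 2 and 6414 and 6878 on WT replicates 1 and 2. Both Ezh2cKO arrays lay above both WT arrays, by 1.09-fold to 1.31-fold over the 4 pairs of arrays. The dim one read 622 and 1174 on the Ezh2cKO arrays, against 108 and 269 on the WT arrays. Here, too, the groups did not overlap, and the 4 pairs of arrays were apart by 2.32-fold to 10.9-fold. Group means were 7934 ± 644 in Ezh2cKO and 6646 ± 328 in WT for the bright probe set, and 898 ± 391 in Ezh2cKO and 188 ± 114 in WT for the dim one (SD, n = 2 each).

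Values were then put on a log2(signal + 16) scale, where changes of dim probe sets come out smaller than they are. There the difference Ezh2cKO minus WT was 0.25 (SE 0.14) by the bright Mt1 probe set. By the dim one it was 2.22 (SE 0.51). Within number 1 the 2 probe sets gave 0.22 and 2.37, bright first, and within number 2 they gave 0.29 and 2.06. The signal ratio of Ezh2cKO to WT by the dim probe set was 5.79 within number 1 and 4.37 within number 2, and by the bright one it was 1.17 and 1.22. Among 27022 probe sets whose mean signal reached 73.2, the level above which values were tested, the dim Mt1 probe set had the third largest log2 difference towards Ezh2cKO. It was 1 of 19 that were at least 2-fold higher in Ezh2cKO in all 4 pairs of arrays (0.0703% of those tested), while 1 was at least 2-fold lower in all pairs (0.0037%). These values belong to the contrast that the choice of the genes had in view and support nothing further.

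**Figure D2:**
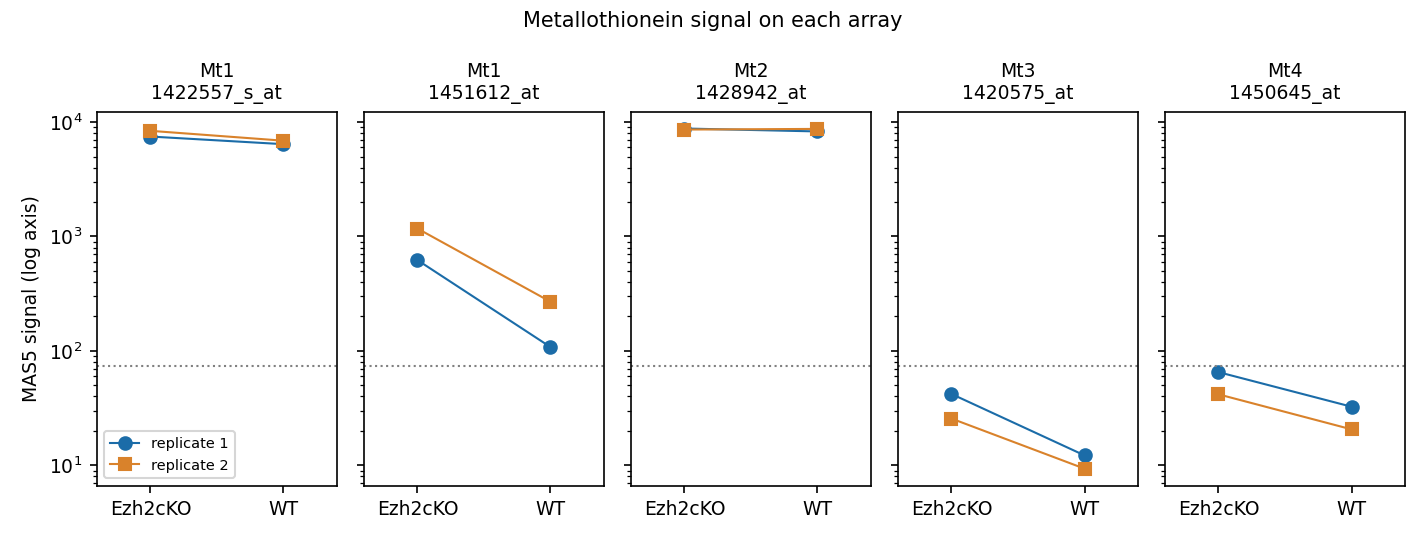
MAS5 signal (y axis, log scale) of the 5 metallothionein probe sets on each of the 4 arrays, with 1 point per array and a line joining the Ezh2cKO and WT arrays of the same number. The dotted line is the mean signal of 73.2 below which a probe set was not tested. The dim Mt1 probe set, at 622 and 1174 in Ezh2cKO and 108 and 269 in WT, has the steepest lines of the 3 probe sets above the dotted line, and Mt2 is nearly flat.

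The gap between the probe sets of Mt1 could be set against that of other genes with several probe sets. For each of 6014 genes with at least 2 probe sets above the filter, the log2 difference of the brightest was subtracted from that of the dimmest. The result was 1.96 for Mt1, 2.15 within number 1 and 1.78 within number 2. No other gene of the 6014 had a larger gap in size, where the median size was 0.15 and the 90th percentile 0.42. Next in size came Xist at 1.94, Uqcr10 at -1.86 and Snx6 at -1.65, which were 3.68, -3.49 and -3.23 within number 1 but 0.19, -0.23 and -0.06 within number 2. None of the 6014 genes other than Mt1 reached 1.78 in the same direction within both numbers. Differences in brightness as wide as that of Mt1, whose bright probe set had 13.4 times the mean signal of the dim one, were seen in 810 genes, with a median gap size of 0.17. Levels of different probe sets do not compare amounts of RNA, but their ratio within an array is the same under any scaling that multiplies each array by 1 factor; quantile normalization, which does not, gave log2 differences of 2.18 for the dim and 0.26 for the bright Mt1 probe set. The dim Mt1 signal was 8.32% and 14.0% of the bright one on Ezh2cKO replicates 1 and 2, against 1.68% and 3.91% on WT replicates 1 and 2. Both Ezh2cKO ratios thus lay above both WT ratios. These gaps, ranks and ratios restate the unequal differences for which the family was chosen, and support nothing further.

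**Figure D3:**
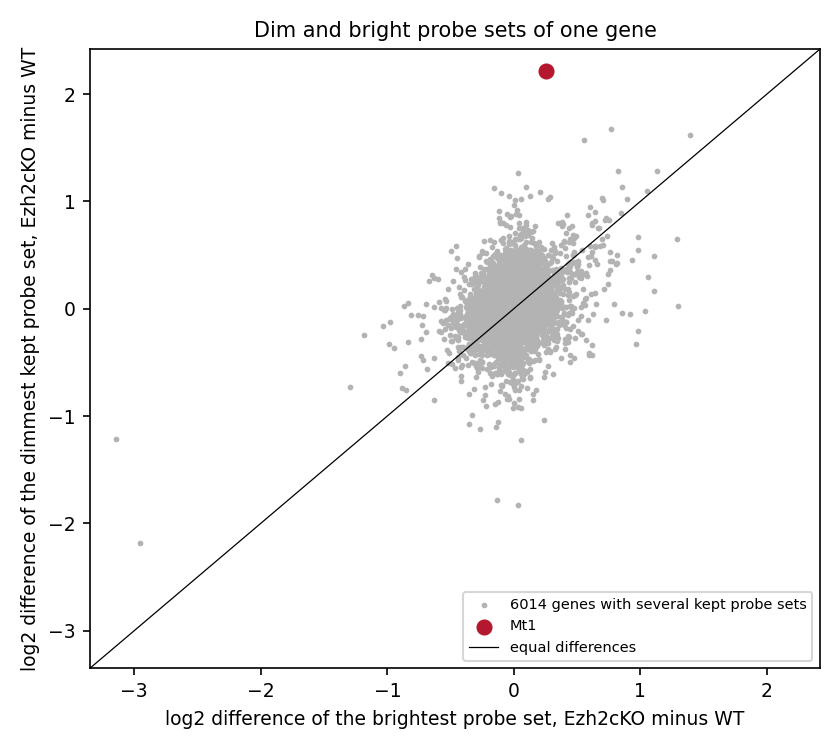
Log2 difference, Ezh2cKO minus WT, of the dimmest kept probe set (y axis) against that of the brightest (x axis), with 1 grey point for each of 6014 genes and the diagonal marking equal differences. Mt1 lies at 0.25 by its bright and 2.22 by its dim probe set, the farthest of these genes from the diagonal in vertical distance. The family was chosen above all for this gap.

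Mt2, the partner of Mt1 in metal and stress responses, did not separate the genotypes. Its probe set read 8791 and 8606 on Ezh2cKO replicates 1 and 2 and 8288 and 8721 on WT replicates 1 and 2. The groups overlapped, since WT replicate 2 lay between the Ezh2cKO arrays. Means were 8699 ± 131 in Ezh2cKO and 8505 ± 306 in WT (SD, n = 2 each), a log2 difference of 0.03 (SE 0.12), with 0.08 within number 1 and -0.02 within number 2. Mt2 and the bright Mt1 probe set were among the brightest on the array, with 98.8% and 98.4% of all probe sets dimmer, and reached 39.8% and 37.4% of the highest signal on an array. In the brightest 10% of tested probe sets the median size of the log2 difference between genotypes was 0.06, against 0.11 over all tested ones. Between arrays of the same genotype it was 0.25 in Ezh2cKO and 0.18 in WT, against 0.41 and 0.3 over all tested ones. The cause of these smaller sizes was not tested, and a difference near 0 at this brightness does not show equal amounts of RNA.

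Mt3 and Mt4 had dim probe sets, with 18.7% and 27.9% of all probe sets dimmer, and neither reached the filter, so they took no part in the fit over all probe sets. Mt4, the squamous member, read 65.2 and 41.7 on Ezh2cKO replicates 1 and 2 and 32.5 and 20.6 on WT replicates 1 and 2. Both Ezh2cKO arrays were above both WT arrays, by 2.01-fold within number 1 and 2.03-fold within number 2. Mt3, the brain member, read 42.0 and 25.6 on the Ezh2cKO arrays, against 12.2 and 9.34 on the WT arrays. Its Ezh2cKO arrays were the higher ones as well, by 3.45-fold and 2.74-fold within numbers 1 and 2. Log2 differences were 0.70 for Mt4 (SE 0.47) and 0.88 for Mt3 (SE 0.35), taken from a fit without the filter. Whether such signals exceed background is not known, because no detection calls were used. Below the filter, 2 arrays of the same genotype differed by a median log2 of 0.49 in Ezh2cKO and 0.38 in WT. The sizes for both genes depend on the constant added before the log, and were 1.53 for Mt3 and 0.98 for Mt4 with 1 added and 0.38 and 0.37 with 64 added.

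In all, 4 of the 5 metallothionein probe sets had the genotypes fully apart with Ezh2cKO on top, 0 had WT on top and Mt2 overlapped. Of all 45037 probe sets, 9.11% had Ezh2cKO on top and 8.23% had WT on top. The shares were 7.22% and 7.21% among the tested probe sets, and 11.9% of those below the filter had Ezh2cKO on top. The metallothionein count belongs to the contrast on which the family was chosen, so nothing is read from it. Within number 1 all 5 were higher in Ezh2cKO, and within number 2 the exception was Mt2. Over all 12703 genes the median log2 difference was 0.016 within number 1 and -0.015 within number 2. The share of all probe sets higher within a number was not counted, so nothing is read from these directions either. The spread among the 5, from 0.03 to 2.22 in log2, was wider between the probe sets of Mt1 than between any other pair of members except Mt2 and the dim Mt1 probe set.

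**Figure D4:**
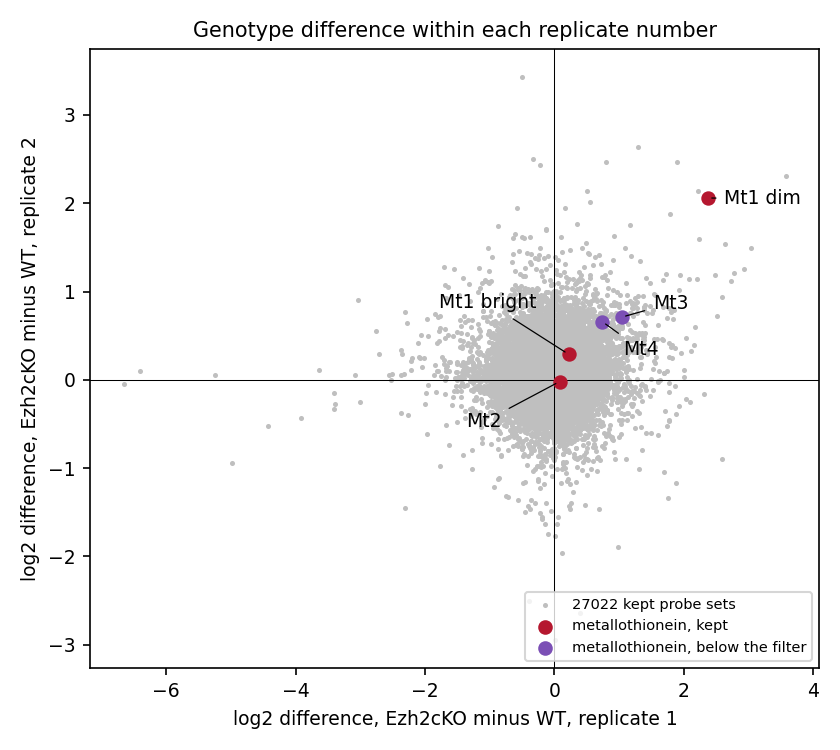
Log2 difference, Ezh2cKO minus WT, within replicate number 1 (x axis) and number 2 (y axis), with 1 grey point for each of 27022 tested probe sets and the 5 metallothionein probe sets in colour. The dim Mt1 probe set lies far out in the upper right at 2.37 and 2.06, while the bright Mt1 and Mt2 probe sets lie near the origin.

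The metallothioneins also differed between arrays of the same genotype. The dim Mt1 probe set read 1.89-fold higher on Ezh2cKO replicate 2 than on replicate 1 and 2.50-fold higher on WT replicate 2 than on replicate 1. Mt3 and Mt4 went the other way, with replicate 2 at 0.608 and 0.640 times replicate 1 in Ezh2cKO and at 0.767 and 0.633 times in WT. For the bright Mt1 probe set these ratios were 1.12 in Ezh2cKO and 1.07 in WT, and for Mt2 they were 0.979 and 1.05. When the arrays were brought to a common median instead, the mean log2 difference of number 2 over number 1 was 0.41 for the dim Mt1 probe set, -0.54 for the bright one and -0.65 for Mt2, so the sign for the last 2 depends on scaling. For the dim Mt1, Mt3 and Mt4 probe sets the sign was the same under every scaling tried. The summed signal of 15 stress and dissociation genes, immediate early and heat shock genes, followed the numbers as well as the genotypes. It was 69750 and 119991 on Ezh2cKO replicates 1 and 2 and 46182 and 85788 on WT replicates 1 and 2. The heat shock genes Hspa1a, Hspa1b and Hsph1, named after their values were seen, read lower on replicate 2 than on replicate 1 in both genotypes. Their log2 differences between genotypes were 0.72, 0.09 and -0.07. Of the 15 genes, 3 lay higher on both Ezh2cKO arrays and 0 lay lower, beside 8.52% and 8.39% of all 12703 genes. The median log2 difference of the 15 was 0.66. The part of this shift in the metallothionein values was not tested.

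None of the 27022 tested probe sets passed limma's moderated test at an adjusted p under 0.05 (0%), and 110 had an unadjusted p under 0.05 (0.407%). With the replicate number as a block, limma's adjusted count was 6 and the unadjusted count 1353. Without Ezh2cKO replicate 2 they were 27 and 909, without WT replicate 2 they were 52 and 437, and without WT replicate 1 they were 2 and 220. For the genes that act with metallothioneins, 6 lists were examined, which held 67 genes with a tested probe set, each represented by its brightest. Of the 67, 0 passed limma's adjusted threshold and 0 had an unadjusted p under 0.05. By position of the arrays, 5 of the 67 lay higher on both Ezh2cKO arrays and 7 lay lower, where 8.52% and 8.39% of all genes did. The median log2 difference over all genes was -0.004.

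Mtf1, the zinc sensor that binds MREs, read 600 and 592 on the Ezh2cKO arrays and 503 and 487 on the WT arrays. Both Ezh2cKO values were the higher ones, at a log2 difference of 0.26 (SE 0.21), and the 3 probe sets of the gene gave 0.11 to 0.26. In its list of 13 regulators and metal-responsive genes, all tested, 2 had both Ezh2cKO arrays above both WT ones and 1 had both below. The median log2 difference was 0.05, and 0.01 with either Ezh2cKO array left out. Ndrg1, a metal- and hypoxia-responsive gene, was the lower one, at 1479 and 1508 in Ezh2cKO against 1634 and 1997 in WT. Slc40a1, the iron exporter ferroportin, read 713 and 206 in Ezh2cKO and 327 and 149 in WT, and its groups overlapped. Gclc, which makes the first intermediate of glutathione, read 702 and 940 in Ezh2cKO and 930 and 1104 in WT, also with overlap.

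Zinc transporters showed small differences. Of 7 tested exporters of the Slc30 family, 1 was higher in both Ezh2cKO arrays and 0 lower, and the median log2 difference was 0.06. Slc30a1, the plasma membrane exporter that Mtf1 induces together with metallothioneins, read 577 and 720 in Ezh2cKO and 695 and 689 in WT, a log2 difference of -0.10 (SE 0.22). The groups overlapped, and its 2 probe sets gave -0.10 and 0.16. Slc30a5, a transporter into the secretory pathway, was the separated one, at 1436 and 1452 in Ezh2cKO against 1412 and 1362 in WT. Slc30a4 and Slc30a6 had log2 differences of 0.11 and 0.14, with overlap. Of 10 tested importers of the Slc39 family, 1 lay higher on both Ezh2cKO arrays and 0 lay lower, at a median of 0.01, or 0.1 without WT replicate 1. The higher one was Slc39a10, an importer that Mtf1 represses when zinc is high, at 3083 and 2599 in Ezh2cKO against 2496 and 2473 in WT. Slc39a8, an importer of zinc, manganese and cadmium, had the largest log2 difference of the list, 0.64 (SE 0.36), and read 2355 and 1476 in Ezh2cKO and 1594 and 888 in WT. Its groups overlapped, because WT replicate 1 lay above Ezh2cKO replicate 2. Slc39a6 and Slc39a11 had log2 differences of -0.14 and 0.10, both with overlap, and the 2 probe sets of Slc39a6 gave -0.14 and 0.08.

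Of 17 tested genes of copper and iron handling, 2 lay higher on both Ezh2cKO arrays and 3 lay lower, at a median log2 difference of -0.06. Cp, the copper-carrying ferroxidase ceruloplasmin, read 111 and 203 in Ezh2cKO and 53.5 and 106 in WT, but its 2 probe sets gave log2 differences of 0.86 and -0.04. Slc11a2, a divalent metal importer, read 460 and 486 in Ezh2cKO and 396 and 351 in WT. Atox1, the copper chaperone, read 7680 and 6879 in Ezh2cKO and 9769 and 7113 in WT, with overlap. The 3 lower genes were Fth1, Cox17 and Aco1, named after their values were seen, with log2 differences of -0.11, -0.15 and -0.06. The 2 probe sets of Fth1 gave -0.11 and -0.004, and the 2 of Aco1 disagreed in sign, at -0.06 and 0.12.

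Of 12 tested genes of the Nrf2-driven oxidative stress response, 0 lay higher on both Ezh2cKO arrays and 1 lay lower, at a median of -0.01. The lower gene was Cat, which breaks down hydrogen peroxide, at 2144 and 2023 in Ezh2cKO against 2666 and 2303 in WT. Srxn1, which repairs oxidised peroxiredoxins, and Nqo1, a quinone reductase, had log2 differences of 0.37 and -0.15, with overlap. Probe sets of Srxn1 disagreed, from -0.83 to 0.37. Of 12 tested genes of the glucocorticoid response, 0 were higher and 2 lower, with a median of -0.11, -0.22 within number 1 and 0.07 within number 2. Without Ezh2cKO replicate 1 this median was 0.32, and without Ezh2cKO replicate 2 it was -0.43. Zbtb16, a glucocorticoid-induced transcriptional repressor, read 601 and 752 in Ezh2cKO and 816 and 871 in WT. Fkbp5, a co-chaperone of the glucocorticoid receptor, read 2726 and 2738 in Ezh2cKO and 3148 and 2981 in WT. Both were lower in both Ezh2cKO arrays. Tsc22d3, a mediator of glucocorticoid action, read 240 and 566 in Ezh2cKO and 480 and 540 in WT, and Dusp1, a phosphatase induced by glucocorticoids and by stress, read 3490 and 5440 in Ezh2cKO and 1322 and 3786 in WT, each with overlap.

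**Figure D5:**
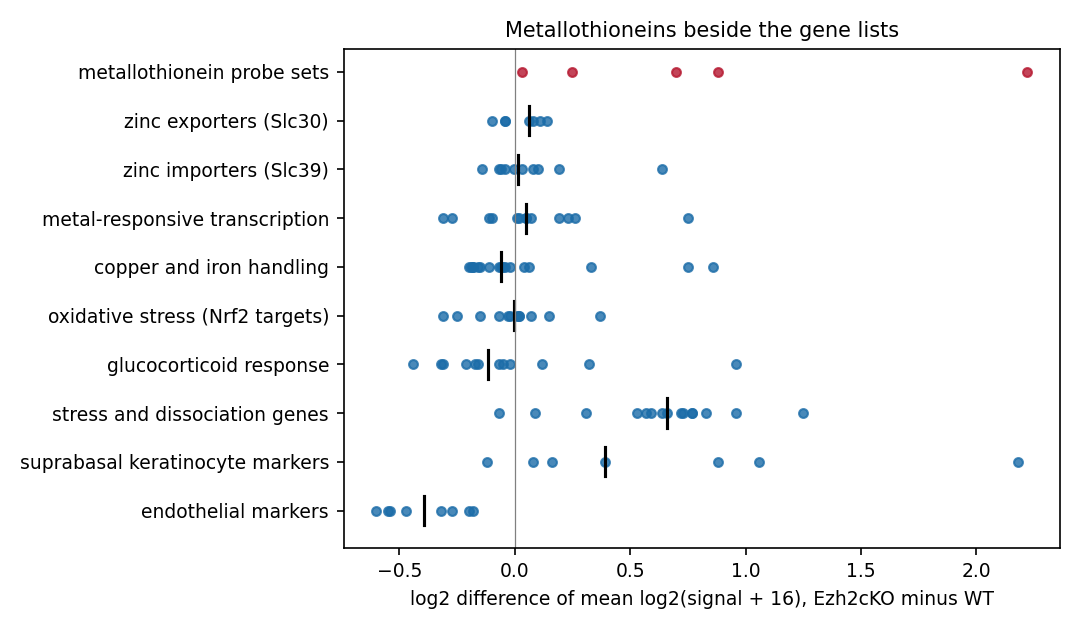
Log2 difference, Ezh2cKO minus WT (x axis), of the 5 metallothionein probe sets (red) and of the tested genes of each list (blue, 1 point per gene by its brightest probe set; black bar, median). The dim Mt1 probe set at 2.22 lies beyond every gene of the 6 metal, oxidative and glucocorticoid lists, whose medians lie between -0.11 and 0.06.

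Markers of cell layers and cell types were read on the same arrays. The 7 basal keratinocyte markers, which are keratins, integrins, Trp63 and Col17a1, were bright, with a summed signal of 78166 and 75580 in Ezh2cKO and 84290 and 73729 in WT. Of the 7, Krt14 lay higher on both Ezh2cKO arrays, and Itga6, an integrin subunit of hemidesmosomes, lay lower, at 6327 and 9411 in Ezh2cKO against 11908 and 10639 in WT (both named after their values were seen). The log2 difference of Itga6 was -0.54, and -0.91 within number 1, by its brightest probe set, while its dimmer one gave -0.19. Of all 12703 genes, 8.52% lay higher on both Ezh2cKO arrays and 8.39% lower, and the marker counts here stand beside those shares. Of the 7 suprabasal markers, 4 lay higher on both Ezh2cKO arrays and 0 lay lower, at a median log2 difference of 0.39. Their summed signal was 41568 and 36946 in Ezh2cKO and 37359 and 31488 in WT. The 7 dermal fibroblast markers on the array summed to 45958 and 57523 in Ezh2cKO and 48595 and 54187 in WT. The 8 endothelial markers summed to 4475 and 9861 in Ezh2cKO and 8186 and 9103 in WT, with 0 separated in either direction. Summed signals of the melanocyte (7 genes), immune (7), Merkel cell (6), neuron and Schwann cell (5) and erythroid (3) markers lay between 258 and 3044 on all arrays. Of these, 1 melanocyte and 1 immune marker were lower in both Ezh2cKO arrays and 1 Merkel cell marker was higher. Fewer cells of a type and less RNA per cell cannot be told apart in these samples, and the part of suprabasal or other cells in the metallothionein values was not tested.

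The genes with the array pattern most like each metallothionein were sought among 12695 others, by the root mean square distance of log2 values centred over the 4 arrays. With 4 points, nearly flat patterns have many close matches: 2207 genes lay within 0.1 of Mt2 and 429 within 0.1 of the bright Mt1 probe set. Closest to Mt2 were Zfp275, Mrtfa, Fbxo28, Rdx and Map3k4, at distances of 0.0079 to 0.011. Closest to the bright Mt1 probe set were Extl2, Card6, 8430429K09Rik, Cers2 and Rgs10, at 0.013 to 0.019. No gene lay within 0.1 of the dim Mt1 probe set, a search added after its values were seen. Its nearest was Zap70, a kinase of T cell receptor signalling, at a distance of 0.25, with 247 and 556 in Ezh2cKO and 54.9 and 87.5 in WT. Next were Tnf, Flg, Muc20 and Sfmbt2, at distances of 0.45 to 0.52. Flg, which encodes filaggrin of the granular layer, read 169 and 184 in Ezh2cKO and 23.8 and 29.5 in WT. Both WT signals of Flg lay below the level of the filter on mean signal. Sfmbt2, a Polycomb group gene, read 365 and 384 in Ezh2cKO and 99.2 and 158 in WT.

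The 4 genes lie in a row on chromosome 8, in the order Mt4, Mt3, Mt2, Mt1, by the RefSeq gene table. Of the 3 annotated genes on either side of the cluster and the 1 between Mt3 and Mt2, 3 had a probe set. Bbs2, a ciliary gene on the Mt4 side, read 240 and 154 in Ezh2cKO and 205 and 158 in WT, a log2 difference of 0.09. Ogfod1, an oxygenase gene beyond it, read 477 and 419 in Ezh2cKO and 455 and 481 in WT, a log2 difference of -0.06. Nup93, a nuclear pore gene on the Mt1 side, read 1996 and 1591 in Ezh2cKO and 1901 and 1567 in WT, a log2 difference of 0.05. The groups overlapped for all 3.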

How the data were processed

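RNA of sorted basal cells from 4 samples, 2 Ezh2cKO and 2 WT, was measured on an Affymetrix mouse expression chip. The authors deposited 1 signal intensity per probe set and array, made with MAS5, per the submitters' processing notes. With 2% of values dropped at either end, every array averaged 500.0, and this scaling was kept. Precision is limited by the number of arrays, and no detection calls were used.

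Groups and replicate numbers came from the sample titles. Of 45101 probe sets, 64 controls were left out, and genes were named from the 34945 probe sets with 1 symbol, 34741 of them matched to RefSeq (GRCm38.p6). Values were taken as log2(signal + 16), and the upper 60% of probe sets by mean signal (27022) were fitted. The fit used limma 3.58.1 in R 4.3.3 (intensity trend, no block, Benjamini-Hochberg). It was tested on simulated data with 200 changed probe sets per run. It recovered 0% of them at 2-fold, 59.5% at 4-fold and 84% at 8-fold, with 0, 4 and 6 false calls. The simulated spread left out the difference between array numbers. The fit without a block holds that difference in its residual spread, so these recoveries may be too high for the real data. A gene was represented by its brightest tested probe set. Genes named were the 4 members and Ezh2, up to 4 members per pathway list with the largest moderated t, Mtf1, the 5 nearest patterns per member and the cluster's neighbours; others are said to be named after their values were seen. The members and lists were chosen with earlier results of these data known. Protein sequences were not used here. Alternatives were other pseudocounts, filters and scalings, a replicate block, no trend, and leaving out each array.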

Additional observations from a re-analysis of the deposited data

How the results depend on the processing

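The difference between genotypes kept its sign for the dim and bright Mt1, Mt3 and Mt4 probe sets under every alternative run. It lay between 1.95 and 2.32 for the dim Mt1 probe set under other pseudocounts, filters, scalings and models, and between 1.61 and 2.82 with 1 array left out. For the bright one it lay between 0.23 and 0.26, and between 0.17 and 0.34 with 1 array left out. Mt2 lay between 0.01 and 0.04, and between -0.004 (without WT replicate 1) and 0.07 with 1 array left out. Mt3 was 1.53 at a pseudocount of 1 and 0.38 at 64, and between 0.64 and 1.12 with 1 array left out. Mt4 was 0.37 at a pseudocount of 64, and between 0.46 and 0.95 with 1 array left out. The moves with the pseudocount follow from the constant added to dim signals.

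Calls over all tested probe sets numbered 0 without a replicate block and 6 with the replicate number as a block (110 and 1353 at an unadjusted p under 0.05). With 1 array left out, where the lone array is assumed to vary like the other group, they numbered 0 (Ezh2cKO replicate 1 out), 27 (Ezh2cKO replicate 2 out), 2 (WT replicate 1 out) and 52 (WT replicate 2 out). Deviations of same-numbered arrays from their group means correlated at 0.77 over the tested probe sets, but with only 2 numbers and no label on a shared origin they are not treated as pairs. Number 2 minus number 1 was -0.54 for the bright Mt1 probe set and -0.65 for Mt2 at a common median. The median of metal-responsive transcription, 0.05, lay between 0.01 and 0.05 in all 13 alternatives, and that of zinc importers, 0.01, between 0.02 and 0.1 with 1 array left out. With 1 array left out, the median of zinc exporters was as low as -0.11 (WT replicate 2 out, sign reversed). That of copper and iron handling ran from -0.09 to 0.01 (reversed with WT replicate 1 out), that of oxidative stress from -0.1 to 0.05 (reversed with Ezh2cKO replicate 2 out) and that of the glucocorticoid response from -0.43 to 0.32 (reversed with Ezh2cKO replicate 1 out). The cause was not tested. For Mt3 and Mt4 the reading is also limited by signal over background, which is not known.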
